A study of Mus musculus with 6 samples.

Results

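Klf2, Klf3, Klf6, S1pr1, Foxo1, Foxo3, Tcf7, Lef1, Bach2 and Il7r are grouped here as 10 genes of the quiescent, naive-like state of T cells. All 10 were found by symbol among the 15319 gene symbols counted in tumor-infiltrating regulatory T cells (Tregs). Treg RNA was sequenced from lung-colonizing tumors of the mouse carcinoma line LLC, collected 21 days after LLC cells were given through the tail vein to mice 8 to 10 weeks old on the C57BL/6J background. The WT group (3 libraries) carried Foxp3Yfp-Cre, and the cKO group (3 libraries) carried Xrcc6flox/flox Foxp3Yfp-Cre, so that Cre was present in the Tregs of both groups and Xrcc6, which encodes the DNA repair protein Ku70, was deleted only where Foxp3 drives Cre. The sources do not say whether each library came from 1 mouse or from pooled mice, and p-values therefore measure only the spread between these samples. The comparison asked here was whether Treg deletion of Ku70 went with another level of these quiescence genes.

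T cells that are not responding to antigen are held at rest by a set of transcription factors. FOXO factors stay in the nucleus while PI3K and AKT signalling is low and induce Klf2 and Il7r. KLF2 in turn induces S1pr1, the receptor with which lymphocytes follow sphingosine-1-phosphate out of tissue, and TCF-1 (encoded by Tcf7), LEF-1 and BACH2 keep effector programs low. In Tregs, high levels of several of these genes are known from central or resting cells, and activated effector Tregs in tissue lower them.

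Total counts were 19032620 to 23159815 per library. WT replicate 2 stood apart, with 11513 genes detected against 14442 to 14737 in the other libraries, and the results for the 10 genes are given with and without it. Xrcc6, the targeted gene, measured 20.9, 63.1 and 23.8 CPM (read counts relative to the TMM-scaled library total) for WT replicates 1 to 3, against 5.24, 3.51 and 4.18 CPM for cKO replicates 1 to 3. Every cKO library lay below every WT library. The fitted log2 fold change was -3.06 (adjusted p = 0.984, quasi-likelihood test of edgeR, Benjamini-Hochberg over all genes) and -2.38 without WT replicate 2 (adjusted p = 0.0196), when Xrcc6 was the single gene called. Over all 6 libraries DESeq2 also called it (adjusted p = 1.2e-05). Foxp3, which defines Tregs, was at 150.4 to 282 CPM, Il2ra (CD25) at 191 to 323 CPM and Cd4 at 493 to 899.5 CPM over the 6 libraries. Of the CD8 chains, Cd8a reached at most 2.60 CPM and Cd8b1 was at 5.22 to 18.5 CPM.

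No gene of the 10 differed between the cKO and WT groups beyond the spread of the replicates. Across all 6 libraries 0 of the 10 passed an adjusted p of 0.05 in edgeR, where 0% of the 15315 genes tested did, and 0 passed an unadjusted p of 0.05, against 1.81% of all genes. The lowest unadjusted p among the 10 was 0.265, for Il7r, and their lowest adjusted p was 0.984. DESeq2 called 2 of all genes and 0 of the 10 by adjusted p, and 0 of the 10 by unadjusted p. The CPM of the groups overlapped for all 10 genes, against 8.24% of all genes whose groups did not overlap. Without WT replicate 2, again 0 of the 10 passed the adjusted threshold (0.00654% of all genes) or the unadjusted one (3.01% of all genes), and the lowest unadjusted p was 0.0937, for Foxo3. In 2 of the 10, Foxo1 and Foxo3, all cKO libraries then lay above both remaining WT libraries, as did 8.48% of all genes.

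**Figure D1:**
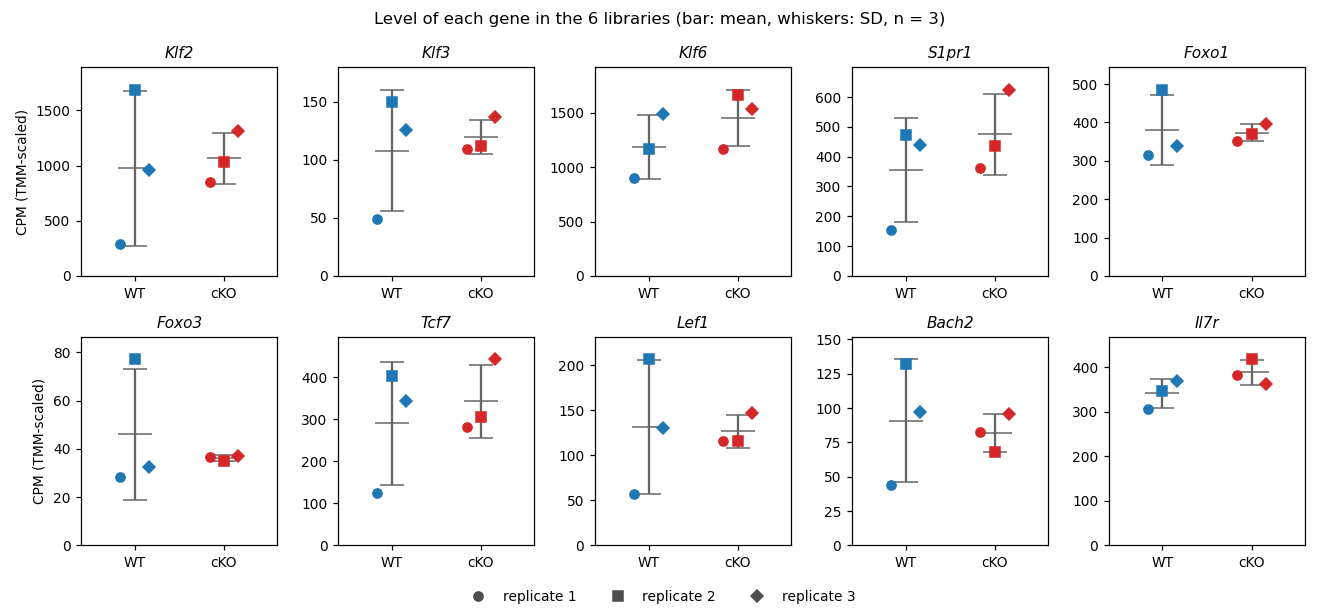
Level of each of the 10 genes (vertical axis, TMM-scaled CPM, from 0) in the WT and cKO libraries. Points are libraries, with the replicate number given by the symbol, and the bar and whiskers are the mean and SD of 3 libraries. WT replicate 1 (blue circle) is the lowest point in all 10 panels, and in none do the groups separate.

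Klf2, the zinc-finger factor at the centre of T cell quiescence, is encoded on chromosome 8 from 72319033 to 72321656 of GRCm38, on the plus strand. WT replicates 1 to 3 held 285, 1686 and 956 CPM of it, and cKO replicates 1 to 3 held 854, 1029.7 and 1311 CPM. The 3 cKO values fell inside the range of the WT values, whose highest library was 5.92 times the lowest. The WT mean of 976 ± 701 CPM (SD, n = 3) stood beside a cKO mean of 1065 ± 231 CPM (SD, n = 3). The log2 fold change was 0.13 ± 0.56 (SE), with a 95% interval from -1.17 to 1.42, so that differences from 0.444-fold to 2.68-fold were within it. Leaving out WT replicate 2 gave 0.78 (interval -0.22 to 1.78), and leaving out WT replicate 1 gave -0.31.

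Klf3, a KLF family repressor that is itself a target of other KLF factors (chromosome 5, 64803388 to 64832901, plus strand), had a lower level. Its CPM was 49.1, 149 and 125 in the WT libraries and 109.7, 112 and 137 in the cKO libraries. WT replicate 1 was the lowest and WT replicate 2 the highest, with the cKO group between them. The log2 fold change was 0.15 ± 0.37 (SE, interval -0.72 to 1.01), and 0.45 without WT replicate 2. Klf6, a KLF factor that responds early to activating signals (chromosome 13, 5861482 to 5870394, plus strand), was at 905, 1169.7 and 1494 CPM in the WT libraries and at 1165, 1662 and 1538 CPM in the cKO libraries. Its groups overlapped, and WT replicate 2 was in the middle of the WT group rather than at its top. Its log2 fold change of 0.29 ± 0.26 (SE, interval -0.32 to 0.90) was nearly the same without WT replicate 2, at 0.28.

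The 250 bases before a RefSeq transcription start of Klf2, Lef1 and Klf6 are shown, since Klf2 and Lef1 moved together across the libraries and Klf6 moved less. This choice was made from the library values, and Tcf7 was nearer to Klf2 in its profile than Lef1 was. Whether letters in these windows go with the library profiles was not tested. Sequences are from RefSeq (GRCm38.p6, plus strand, 5′ to 3′), which gave an upstream window for 9 of the 10 genes, S1pr1 not among them. Capitals mark the letters CACCC or the reverse complement GGGTG, the core of sites that KLF factors bind.
Klf2, chr8:72318812-72319061: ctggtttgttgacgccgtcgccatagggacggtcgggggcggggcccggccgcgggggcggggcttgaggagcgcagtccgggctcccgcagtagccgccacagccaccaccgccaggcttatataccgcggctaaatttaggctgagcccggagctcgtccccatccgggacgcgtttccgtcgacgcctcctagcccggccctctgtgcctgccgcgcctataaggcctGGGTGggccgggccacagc
Lef1, chr3:131110047-131110296: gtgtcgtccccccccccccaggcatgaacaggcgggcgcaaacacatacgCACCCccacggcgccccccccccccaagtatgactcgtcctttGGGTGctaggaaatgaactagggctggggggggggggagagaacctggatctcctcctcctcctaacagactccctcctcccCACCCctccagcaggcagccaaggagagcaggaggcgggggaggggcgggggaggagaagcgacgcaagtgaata
Klf6, chr13:5861239-5861488: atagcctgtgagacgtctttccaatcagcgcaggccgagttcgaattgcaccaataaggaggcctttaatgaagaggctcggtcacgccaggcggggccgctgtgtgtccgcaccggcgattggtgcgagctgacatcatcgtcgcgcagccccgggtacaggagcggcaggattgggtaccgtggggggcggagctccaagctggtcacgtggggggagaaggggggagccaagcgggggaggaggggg
The Klf2 window ends at 72319061 and the Klf6 window at 5861488, past the gene starts given above (GENCODE), 72319033 and 5861482. The Klf2 window held the letters once, in the part past that start, the Lef1 window 3 times and the Klf6 window not at all. Of 9 genes with a window, 4 held them in at least 1 of their listed windows (Klf2, Klf3, Lef1 and Tcf7), and so did 54.5% of 27025 genes, counted in the same way. The FOXO letters GTAAACA or TGTTTAC were in 0 of the 9, and in 3.54% of genes. The TCF and LEF letters CTTTGA or TCAAAG were in 2 of the 9 (Bach2 and Lef1, the latter in a window of another start, not shown), and in 15.8% of genes. These are matches of letters and not measured binding sites.

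S1pr1, the egress receptor and a direct KLF2 target (chromosome 3, 115710433 to 115715072, minus strand), was at 154, 472 and 440.0 CPM in the WT libraries and at 362, 437 and 624 CPM in the cKO libraries. The highest of the 6 was cKO replicate 3, and WT replicates 2 and 3 lay above cKO replicates 1 and 2. The WT mean of 355 ± 175 CPM (SD, n = 3) stood beside a cKO mean of 474 ± 135 CPM (SD, n = 3). Its log2 fold change of 0.42 ± 0.42 (SE, interval -0.56 to 1.40) had the largest size among the 10 genes over all libraries. Leaving out WT replicate 2 gave 0.68, and leaving out WT replicate 1 gave 0.06. Ccr7, the chemokine receptor for lymph node entry, was at 589 to 911 CPM in the WT group and 757 to 951 CPM in the cKO group (log2 fold change 0.19, and 0.33 without WT replicate 2). Cd69, whose product removes S1PR1 protein from the cell surface, was at 530.4 to 903 CPM and 599.8 to 894 CPM (log2 fold change 0.01, and 0.13). Neither Ccr7 nor Cd69 passed the test.

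Foxo1, the main FOXO factor of T cells (chromosome 3, 52268336 to 52353221, plus strand), was at 316, 485 and 339.9 CPM in the WT libraries and at 352, 371 and 396 CPM in the cKO libraries. WT replicate 2 was the highest and the other WT libraries were below all cKO libraries. Its log2 fold change was -0.03 ± 0.20 (SE, interval -0.50 to 0.44), and 0.19 (interval -0.16 to 0.53) without WT replicate 2. Foxo3, its less abundant relative (chromosome 10, 42181841 to 42276755, minus strand), was at 28.3, 77.1 and 32.5 CPM in the WT libraries and at 36.7, 34.8 and 36.9 CPM in the cKO libraries. WT replicate 2 was the highest, and the other 5 libraries lay close together. The log2 fold change was -0.35 ± 0.37 (SE, interval -1.21 to 0.52), and turned to 0.25 (interval -0.05 to 0.55) without WT replicate 2. For both genes an exact two-sided permutation test over those 5 libraries gave p = 0.2, the smallest that 2 libraries against 3 can give.

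Tcf7, which encodes TCF-1 (chromosome 11, 52252371 to 52283014, minus strand), was at 125, 403 and 345 CPM in the WT libraries and at 281, 305 and 443 CPM in the cKO libraries. Its order of libraries followed that of S1pr1. TCF-1 transcripts differed by a log2 fold change of 0.24 ± 0.41 (SE), 0.55 (interval -0.32 to 1.42) without WT replicate 2 and -0.12 without WT replicate 1. Lef1, the partner of TCF-1 at shared DNA sites (chromosome 3, 131110471 to 131224356, plus strand), was at 57.5, 207 and 130.2 CPM in the WT libraries and at 116, 116 and 147 CPM in the cKO libraries. The cKO values lay within the WT range, and the log2 fold change was -0.06 ± 0.40 (SE, 95% interval of the fold 0.499 to 1.85), 0.43 without WT replicate 2 and -0.41 without WT replicate 1. Satb1, a chromatin organizer of naive T cells, was at 86.5, 307 and 197 CPM in the WT libraries and at 191, 197 and 259.6 CPM in the cKO libraries, with the low value again in WT replicate 1. Its log2 fold change was 0.13, and 0.61 without WT replicate 2.

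Bach2, a repressor that holds back effector differentiation (chromosome 4, 32238804 to 32586108, plus strand), was at 43.6, 132 and 96.7 CPM in the WT libraries and at 82.8, 67.7 and 95.3 CPM in the cKO libraries. The cKO libraries lay between WT replicate 1 and the other WT libraries. The log2 fold change was -0.15 ± 0.37 (SE, interval -1.01 to 0.71), 0.22 without WT replicate 2 and -0.48 without WT replicate 1. Prdm1, which encodes the effector Treg factor BLIMP-1 and is repressed by BACH2, was at 109, 108 and 80.0 CPM in the WT libraries and at 102, 101 and 75.1 CPM in the cKO libraries (log2 fold change -0.10, and -0.03 without WT replicate 2). Unlike Bach2, its WT replicates 1 and 2 were nearly equal. Il7r, the receptor chain through which IL-7 keeps resting T cells alive (chromosome 15, 9505788 to 9530176, minus strand), was the steadiest gene of the 10 in the WT group, at 307, 348 and 370.2 CPM, and was at 384, 418 and 364 CPM in the cKO group. A single cKO library, replicate 3, lay below the highest WT library. The WT mean of 342 ± 32.1 CPM (SD, n = 3) stood beside a cKO mean of 389 ± 27.6 CPM (SD, n = 3). The log2 fold change of 0.19 ± 0.15 (SE) had an interval from -0.17 to 0.55, a fold of 0.886 to 1.46, the narrowest of the 10. Leaving out WT replicate 2 moved it to 0.20. Exact two-sided permutation tests of CPM over the 6 libraries gave p = 0.2 for Il7r, p = 0.3 for Klf6 and higher values for the others, where 3 libraries against 3 cannot give less than 0.1.

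**Figure D2:**
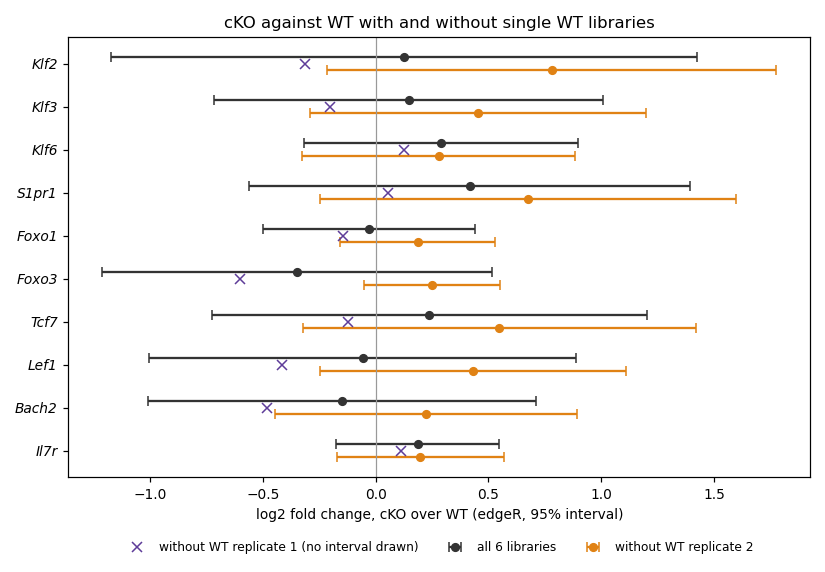
Log2 fold change of cKO over WT for the 10 genes (horizontal axis, edgeR), with 95% intervals for all 6 libraries (black) and without WT replicate 2 (orange), and the value alone without WT replicate 1 (violet crosses). Every interval crosses 0, and 7 of the crosses lie below 0 where all 10 orange points lie above it.

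The direction of the 10 genes depended on which WT library was in the fit. Over all libraries 6 were positive and 4 negative, with a median log2 fold change of 0.14 against 0.04 for all genes. Without WT replicate 2 all 10 were positive, with a median of 0.36 against -0.01 for all genes. Without WT replicate 1, 3 were positive and 7 negative, with a median of -0.17 against 0.11. Without WT replicate 3 the median was 0.19 against 0.10, and without cKO replicate 3 it was -0.02 against 0.04, with 5 of the 10 positive. In none of the 15 fits made did any of the 10 pass an unadjusted p of 0.05, and the lowest over those fits was 0.0595, for Bach2 without WT replicate 1.

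What stood out was the spread inside the WT group. WT replicate 1 was the lowest of the 6 libraries for 10 of the 10 genes, where 18.0% of the 8447 genes with a mean of at least 10 CPM were lowest there. WT replicate 2 was the highest for 6 of the 10 (37.6% of those genes), and cKO replicates 2 and 3 were each the highest for 2. The summed CPM of the 10 genes was 2270.4, 5129 and 4329 in the WT libraries and 3743, 4554 and 5091 in the cKO libraries, so WT replicate 1 was below every other library. Klf6 and Klf2 weighed most in the group means of these sums, with WT means of 1189 and 976 CPM and cKO means of 1455 and 1065 CPM. The low values in WT replicate 1 did not come from comparing it with WT replicate 2 alone: the ratio of WT replicate 3 over WT replicate 1 had a median of 2.24 over the 10 genes and of 0.974 over all genes of at least 10 CPM. The ratio reached 3.35 for Klf2 and 2.85 for S1pr1, and was 1.08 for Foxo1, 1.15 for Foxo3 and 1.21 for Il7r. In the median gene of the 10 the highest WT library was 3.04 times the lowest (1.57 over all genes of at least 10 CPM), and the highest cKO library was 1.34 times the lowest (1.21). The SD of log2 values was larger in the WT than in the cKO group for all 10 genes, as it was for 84.8% of genes. The WT SD of Klf2, S1pr1, Tcf7 and Lef1 was above that of 96.6%, 91.1%, 91.4% and 91.8% of genes, and that of Il7r above 13.5%. The lowest count of any of the 10 in a library was 592 (Foxo3 in WT replicate 1, exact 95% Poisson interval 545 to 642, counting error only).

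**Figure D3:**
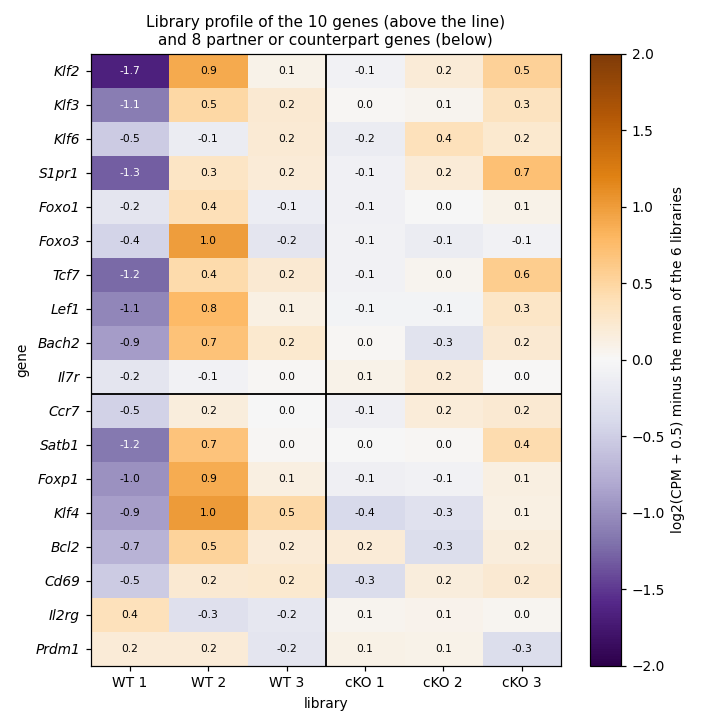
Level of the 10 genes (above the black line) and of 8 partner or counterpart genes (below it) in each library, as log2(CPM + 0.5) minus the mean of the gene over the 6 libraries (color scale, violet low, orange high). The WT replicate 1 column is violet for all 10 genes and deepest for Klf2, and turns orange for Il2rg and Prdm1.

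The genes whose profile over the 6 libraries was nearest to a given gene were ranked by the root mean square difference of centred log2(CPM + 0.5), over 8446 other genes of at least 10 mean CPM. The nearest to Klf2 were Gpr83 (0.166) and Ccl9 (0.171), where the median gene was at 0.839. Gpr83 encodes a G protein-coupled receptor known from Tregs, and Ccl9 a chemokine of myeloid cells. Tcf7 ranked 14, Lef1 20, S1pr1 21, Klf3 24 and Bach2 47 in nearness to Klf2, while Foxo3 ranked 298, Klf6 673, Foxo1 728 and Il7r 2039. The gene nearest to S1pr1 was Tcf7 (0.102), and Aldh2 (0.137) was also among the 3 nearest, where the median gene was at 0.686. Il7r was nearest to Zfp874b (0.0200), Nup50 (0.0604) and Ptbp3 (0.0661), where the median gene was at 0.288, and Klf6, the nearest of the other 9 genes, ranked 1904. The points are 6 libraries that share depth and scaling, and the ranks are a description.

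Per kilobase of annotated exon, the level (mean of 6 libraries) was 552 CPM per kb for Klf2, 301 for Klf6, 136 for S1pr1, 121 for Tcf7, 78.3 for Il7r, 43.5 for Foxo1, 14.7 for Lef1, 10.1 for Klf3, 8.69 for Bach2 and 5.42 for Foxo3. Klf6 and S1pr1, Il7r and Foxo1, and Foxo1 and Lef1 were the neighbours in this order whose ranges over the 6 libraries did not overlap. All other neighbours overlapped. Klf2 was above Klf6 in 5 of 6 libraries, Tcf7 above Il7r in 5 and Klf3 above Bach2 in 4. The order in the WT group alone had the same first and last gene, with Klf2 at 528 ± 379 and Foxo3 at 6.07 ± 3.57 CPM per kb (SD, n = 3).

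Other genes of the same pathways were counted without the 10. In each of the 8 pathway and activation lists 0 genes passed the adjusted threshold over all libraries in edgeR, as 0% of all genes did. Of 11 other KLF family genes with counts, 2 had a positive and 9 a negative log2 fold change (median -0.15), and 7 were positive without WT replicate 2. Klf16 was the single one past an unadjusted p of 0.05, at 28.0, 18.0 and 26.4 CPM in the WT and 36.4, 31.3 and 36.2 CPM in the cKO libraries (log2 fold change 0.52, adjusted p = 0.984 in edgeR), where 1.81% of all genes did. It also passed without WT replicate 2, at 0.35. It did not pass with library size alone, without WT replicate 3, or when any single cKO library was left out. Klf4, another factor of resting T cells, was at 28.0, 105 and 72.1 CPM in the WT and 39.2, 42.4 and 56.4 CPM in the cKO libraries (-0.57, and -0.12 without WT replicate 2). Of 17 homing and sphingosine-1-phosphate genes 16 were positive and 1 negative (median 0.34), and 11 of the 17 had a mean of at least 10 CPM. With low-count genes filtered out (edgeR's filterByExpr) the median was 0.18. None of the list passed an unadjusted p of 0.05 over all libraries. The median of this list was 0.16 without WT replicate 2, when S1pr4, a second sphingosine-1-phosphate receptor, had 0.42 and passed it (adjusted p = 0.997 in edgeR).

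Of 27 FOXO pathway genes 14 were positive and 13 negative (median 0.00), and 18 were positive without WT replicate 2. None passed an unadjusted p of 0.05 in edgeR over all libraries or without WT replicate 2. The lowest over all libraries was that of Txnip, a glucose-uptake inhibitor that is high in resting cells. Its CPM was 235, 327 and 489.5 in the WT and 430.4, 584 and 651 in the cKO libraries (0.66, and 0.62 without WT replicate 2, adjusted p = 0.984 in edgeR). Txnip did pass with DESeq2, with and without WT replicate 2, with quality weights and with the replicate number as a block. It also passed in edgeR without WT replicate 3 and without cKO replicate 1, and in no other alternative. An exact two-sided permutation test of its CPM over all libraries gave p = 0.2. Of 18 TCF and LEF pathway genes 11 were positive (median 0.04), and 12 without WT replicate 2. Of 21 genes around BACH2 8 were positive and 13 negative (median -0.12), and 10 were positive without WT replicate 2. In this list Ahr, which encodes the aryl hydrocarbon receptor, was the single gene past an unadjusted p of 0.05, where 1.81% of all genes were. Its CPM was 67.1, 92.9 and 87.7 in the WT and 67.8, 60.7 and 59.9 in the cKO libraries (-0.39, adjusted p = 0.984 in edgeR). Ahr did not pass it without WT replicate 2 (-0.30) or with the replicate number as a block, and without WT replicate 2 Mafk, a small MAF protein that pairs with BACH factors, was the single gene that did. Of 18 IL-7 receptor pathway genes 9 were positive and 9 negative (median 0.00), and 10 were positive without WT replicate 2. Il2rg, the chain that pairs with IL-7R, was highest in WT replicate 1 at 1392 CPM and lay between 876 and 1136 CPM in the other libraries (0.08, and -0.05 without WT replicate 2), and Bcl2, a survival gene induced through the receptor, was at 62.8, 149 and 119 CPM in the WT and 119, 81.8 and 116 CPM in the cKO libraries (-0.06, and 0.22 without WT replicate 2). Of 28 other quiescence genes 13 were positive and 15 negative (median -0.01), and 21 were positive without WT replicate 2 (median 0.10). Foxp1 among them, a factor that keeps naive T cells at rest, was at 105, 383 and 226 CPM in the WT and 193, 196 and 226 CPM in the cKO libraries (-0.22, and 0.31 without WT replicate 2). Among genes with at least 10 mean CPM, those lowest in WT replicate 1 were 5 of 8 in the KLF family list, 4 of 11 in the homing list, 10 of 27 in the FOXO list, 11 of 15 in the TCF and LEF list, 6 of 19 around BACH2, 8 of 18 in the IL-7 receptor list and 16 of 27 of the other quiescence genes, beside 18.0% of all such genes.

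Genes of activated and effector Tregs had their highest sum in WT replicate 1. Of 23 such genes 14 were highest and 2 lowest there, where 19.5% of all genes of at least 10 mean CPM were highest and 18.0% lowest, and their summed CPM was 15427, 11811 and 10569 in the WT and 11706, 11594 and 9939 in the cKO libraries. The 2 most abundant of them, Tnfrsf4 and Nr4a1, went opposite ways. Tnfrsf4 was highest in WT replicate 1, at 3072 CPM, and lay between 1664 and 1920 CPM in the other libraries. Nr4a1 was lowest in WT replicate 1, at 865 CPM, and lay between 993 and 2272 CPM in the others. By the sums, WT replicate 1 was the library with the lowest value for the 10 quiescence genes and the highest for the activated genes. Between the groups 6 were positive and 17 negative (median -0.14), and 3 and 20 without WT replicate 2 (median -0.16), while without WT replicate 1 the median was 0.07. None passed an unadjusted p of 0.05 over all libraries or without WT replicate 2. Id2, which encodes a regulator of effector fate, was at 1693, 1196 and 1095 CPM in the WT and 1140.0, 1166 and 864 CPM in the cKO libraries (-0.33, and -0.40 without WT replicate 2), and Il10, an effector cytokine, at 159.6, 173 and 182 CPM and 108, 181 and 126 CPM (-0.31, and -0.30).

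**Figure D4:**
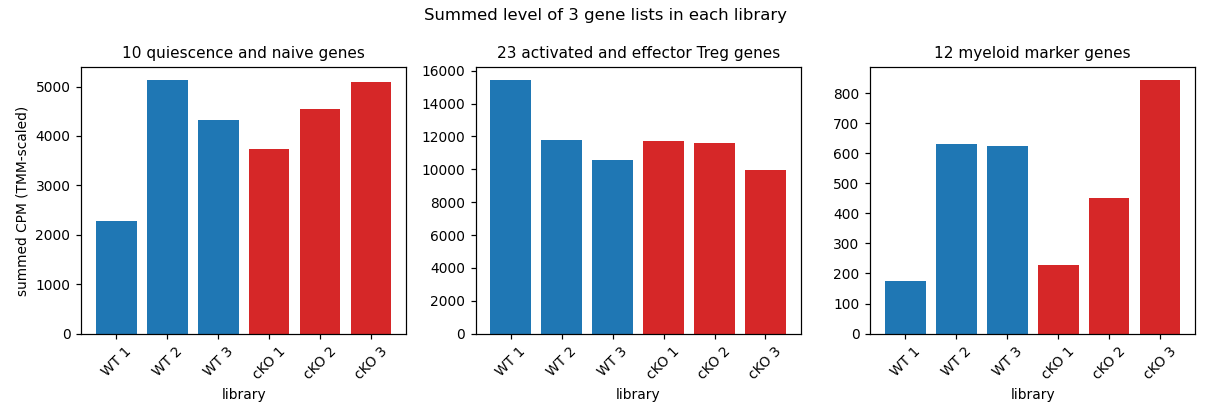
Summed TMM-scaled CPM (vertical axis, from 0) of the 10 quiescence genes, of 23 activated and effector Treg genes and of 12 myeloid markers in each WT (blue) and cKO (red) library. WT replicate 1 has the lowest quiescence sum (2270.4), the highest activated sum (15427) and the lowest myeloid sum (174).

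Markers of other cells also differed between the libraries. The 12 myeloid markers summed to 174, 632 and 623 CPM in the WT and 229, 452 and 843 CPM in the cKO libraries, and were led by Lyz2, at 129, 474, 500.4, 169.9, 323 and 625 CPM in the same order of libraries. Of these markers 5 of 5 with at least 10 mean CPM were lowest in WT replicate 1, as were the 10 quiescence genes, and the part of myeloid RNA in their values was not tested. The 9 CD8 T and NK markers with counts summed to 756, 90 and 290.5 CPM in the WT and 311, 483 and 294 CPM in the cKO libraries, most of it Nkg7, and were highest in WT replicate 1. The 9 B cell markers with counts summed to 16.9, 28.5 and 26.6 CPM in the WT and 13.1, 33.1 and 51.9 CPM in the cKO libraries. The 11 endothelial markers, mostly Pecam1, which T cells also express, summed to 61.3 to 96.5 CPM, with Cdh5 at no more than 0.667 CPM. Tie1 among them was at 6.63 CPM in WT replicate 2 and at most 0.489 CPM elsewhere, and Vwf reached 1.21 CPM in cKO replicate 1. The 11 lung epithelial, stromal and tumor markers summed to 38.0 to 104 CPM. The 14 genes of T cell and Treg identity summed to 10844, 7739 and 8397 CPM in the WT and 8831, 9594 and 8549 CPM in the cKO libraries, and 7 of the 14 were highest in WT replicate 1. In bulk RNA, fewer cells in a quiescent state and less of these transcripts in each cell cannot be told apart.

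Klf3, Tcf7 and Bach2 had estimated counts that were not whole in all 6 libraries, so part of their reads was divided among genes, and the other 7 had whole counts. Klf3, Foxo1, Tcf7, Lef1 and Bach2 overlap other annotated genes, each at least 1 on the opposite strand, and the strand setting of the counting is not given in the sources used here.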

How the data were processed

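Tumor-infiltrating Tregs (the study sorts mouse Tregs as CD4+CD25+YFP+) gave 3 WT and 3 cKO mRNA libraries, made with a SMARTER kit and read as pairs of 150 bp. The authors aligned clean reads to GRCm38 and deposited expected counts per gene symbol, not normalized. The submitters' processing notes name Bowtie2 2.3.4.3 and RSEM 1.3.1. Of the values 21.6% were not whole, and all were rounded. The 15315 genes with at least 1 count were scaled by TMM and tested with edgeR 4.0.16 in R 4.3.3, quasi-likelihood, with Benjamini-Hochberg adjustment. The 14 alternatives were DESeq2 1.42.0 with all libraries and without WT replicate 2, limma 3.58.1 with quality weights, and other settings of edgeR. The edgeR settings were median-of-ratios scaling, library size alone, filterByExpr, robust dispersion and the replicate number as a block. Each of the 6 libraries was also left out in turn. A count of 3 was worth 0.133 to 0.156 CPM. Replicates differed beyond sampling noise. Positions and exon lengths are from GENCODE M21, which holds 14786 of the 15319 symbols.

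The 10 genes and the gene lists were chosen with earlier results of these data known. Chosen beside them by rule were Xrcc6, Treg markers, 9 partner genes, 2 genes per list by level and 2 by p, and the 3 nearest profiles. Many of these genes are left out of the text, Klf12 and Maf among them. The alternatives were run for the 10 genes, Xrcc6, the Treg markers, the partners, the genes of lowest p in the pathway lists and the median of every list. The marker lists are given as levels. The library order and the spread in the WT group were measured after the values had been seen.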

Additional observations from a re-analysis of the deposited data

How the results depend on the processing

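Under all 14 alternatives 0 of the 10 genes were called, and Klf6, S1pr1 and Il7r kept a positive direction in each. Over all genes edgeR called 0, DESeq2 called 2, leaving out single libraries gave 0 to 1 and DESeq2 without WT replicate 2 gave 3. Genes past an unadjusted p of 0.05 numbered 277 over all libraries. Whether the replicate numbers pair the samples cannot be told here, since the 3 deviations of a group from its mean depend on each other. Same-numbered libraries deviated from their group means with correlations across genes of -0.0121, -0.214 and 0.199. Those of differently numbered libraries ran from -0.308 to 0.307. With the replicate number as a block, 0 genes were called and 85 passed an unadjusted p of 0.05, and Lef1 turned to 0.12 and Bcl2 to 0.00. With quality weights (limma's voomWithQualityWeights, weight 0.0965 for WT replicate 2) Foxo1 turned to 0.17, Foxo3 to 0.18, Lef1 to 0.38, Bach2 to 0.16, Foxp1 to 0.24 and Bcl2 to 0.11. With DESeq2 without WT replicate 2, Foxo1 turned to 0.18, Foxo3 to 0.25, Lef1 to 0.43, Bach2 to 0.22, Foxp1 to 0.30, Bcl2 to 0.21 and Il2rg to -0.05. With library size alone Cd69 turned to -0.08. Of the list medians, that of the myeloid markers ranged from 0.15 to 1.26, that of the B cell markers from -0.31 to 1.36 and that of the endothelial markers from 0.58 to 1.98 over the alternatives. The median of the homing list ranged from 0.15 to 0.61.

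Leaving out single libraries moved log2 fold changes from -0.31 to 0.78 for Klf2, -0.20 to 0.45 for Klf3, -0.15 to 0.19 for Foxo1, -0.60 to 0.25 for Foxo3, -0.12 to 0.55 for Tcf7, -0.41 to 0.43 for Lef1 and -0.48 to 0.22 for Bach2. The ranges were -0.38 to 0.02 for Il2ra, -0.20 to 0.17 for Cd69, -0.57 to 0.31 for Foxp1, -0.22 to 0.61 for Satb1, -0.23 to 0.03 for Prdm1, -0.34 to 0.22 for Bcl2 and -0.05 to 0.31 for Il2rg. The causes were not tested. The count of 3 libraries a group, with a WT group this variable, leaves intervals that reach a fold of 2.68 for Klf2.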
